A study of Mus musculus with 6 samples.

Results

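The choroid plexus epithelium was followed through 10 genes that this cell layer is known to express: Ttr, Kcne2, Folr1, Clic6, Kl, Enpp2, Sostdc1, Aqp1, Otx2 and Cldn2. Every probe on the brain arrays whose gene symbol was one of these was taken. This gave 14 probes of the 25697 listed, and 13 of them, with at least 1 probe for each gene, were bright enough to be tested among 14215 tested probes. One Aqp1 probe rose in hSRY-ON brains and no probe of the 10 genes fell at an adjusted p under 0.05. Of all tested probes 2.17% passed in either direction. The Aqp1 call was lost when any array other than hSRY-ON 3 was left out. The probes of Ttr and Clic6 and the tested Kl probe read higher, and the Kcne2 probe lower, on each hSRY-ON array than on any hSRY-OFF array, as did 27.7% of all tested probes in one direction or the other, and their adjusted p-values missed the threshold. The Kl probe was above background only on the hSRY-ON arrays, with hSRY-OFF 2 and 3 only just short of it, and entered the test through the hSRY-ON arrays.

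The study asked which transcripts differ in the brain when human SRY, the Y-linked gene that starts testis development, is active where it normally is not. RNA of brains of male mice was hybridized to Illumina bead arrays at postnatal day 6, with 3 arrays for each genotype. The labels give the strain as FVB, and the study names an FVB/N background. All mice carried 1 transgenic insertion, Signalox-hSRY, a single copy at the H11 locus on chromosome 11. In hSRY-OFF mice the cassette was not recombined, so that the ubiquitous CAG promoter drove the red fluorescent protein DsRed2 and the human gene was silent. In hSRY-ON mice, Cre protein from the oocytes of Ddx4-Cre mothers had deleted DsRed2 in the early embryo, and the same promoter drove FLAG-tagged human SRY together with EGFP. The promoter is not specific to any cell type of the brain, and 1 transgenic line was used. The study describes the hSRY-ON pups as small and poorly fed, so that expression of the transgene and the general state of the pups cannot be told apart in this comparison. The hSRY-ON mice chosen for the arrays had not inherited Ddx4-Cre. The labels do not name litters. By the study's account, Cre from the oocyte acted whether or not a pup inherited Ddx4-Cre, so unrecombined carriers would come from other crosses. Litter and mother can then not be told apart from genotype. The transgene's own expression was not analysed here.

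The choroid plexus is a vascular fold of tissue inside the brain ventricles, covered by a single layer of epithelial cells. This layer secretes the cerebrospinal fluid by moving ions and water from the blood side to the ventricle, and it makes carrier proteins and signalling factors that the fluid spreads through the brain. It is a small part of the brain, and several of its characteristic transcripts are scarce in other brain cells. In brain RNA, a change in the share of choroid plexus cells and a change in RNA per cell cannot be told apart.

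The epithelium's defining markers were present in every brain. Of the 14 probes, 12 were detected on all 6 arrays, at a detection p-value under 0.05, a p-value that sets the probe against the array's negative-control beads. The exceptions were both Kl probes. Over all 25697 probes, the arrays had median intensities between 200 and 220 and 13816 to 14377 detected probes. On the second principal component of the tested probes (18.5% of the variance), hSRY-ON 3 stood apart at -22.2, and it was the lowest hSRY-ON array for 10 of the 13 tested probes of the 10 genes. Values without it are therefore given beside the results that could be fitted.

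The upstream sequences of the 3 genes that the results turn on most and that had an entry in the RefSeq promoter table (GRCm38.p6) are shown first, each as the 250 bases before an annotated transcription start, 5′ to 3′. Aqp1 lies at chr6:55336299-55348555, and the bases shown are chr6:55336049-55336298 (plus strand). Kl lies at chr5:150952607-150993817, and the bases shown are chr5:150952357-150952606 (plus strand). Kcne2 lies at chr16:92292389-92298133, and the bases shown are chr16:92292139-92292388 (plus strand). Capitals mark the GC box, the element GGGCGG on either strand, a binding sequence of the factor Sp1.
Aqp1: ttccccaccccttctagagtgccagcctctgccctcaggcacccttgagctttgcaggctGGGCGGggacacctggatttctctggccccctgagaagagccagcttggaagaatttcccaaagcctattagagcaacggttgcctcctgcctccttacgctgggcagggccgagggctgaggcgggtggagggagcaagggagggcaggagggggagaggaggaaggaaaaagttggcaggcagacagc
Kl: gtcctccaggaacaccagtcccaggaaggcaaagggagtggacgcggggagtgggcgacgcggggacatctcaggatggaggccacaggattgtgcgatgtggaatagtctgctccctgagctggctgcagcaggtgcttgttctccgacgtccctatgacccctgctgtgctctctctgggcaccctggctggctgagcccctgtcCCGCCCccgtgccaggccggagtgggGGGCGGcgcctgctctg
Kcne2: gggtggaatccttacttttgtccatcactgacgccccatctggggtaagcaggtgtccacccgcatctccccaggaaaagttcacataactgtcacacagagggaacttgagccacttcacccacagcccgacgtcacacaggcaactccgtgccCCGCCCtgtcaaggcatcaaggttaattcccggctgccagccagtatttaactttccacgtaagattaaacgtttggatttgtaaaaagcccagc
The Kl window held 2 GC boxes, and the Aqp1 and Kcne2 windows shown held 1 each. A further Kcne2 window at an alternative start, chr16:92295366-92295615, held 0. Windows were listed for 5 of the 10 genes, 9 windows in all with alternative starts, and the GC box was in 3 of these 9 against 32.7% of all 32851 promoter windows of 250 bases. The Otx motif TAATCC, on either strand, was in 1 of the 9 windows, which belonged to Otx2, against 6.25% of all windows. The SRY and SOX motif AACAAT, on either strand, was in 0 of the 9 windows against 9.42% of all. These matches describe letters in these windows and say nothing of binding.

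Across the tested probes of the 10 genes, 11 had a positive and 2 a negative log2 fold change (hSRY-ON minus hSRY-OFF), with a median of 0.23 against 0.0048 over all tested probes. One of the 13 passed an adjusted p under 0.05 in limma and was higher, and 0 were lower. Over all tested probes 2.17% were called, 0.844% higher and 1.32% lower. At an unadjusted p under 0.05, 6 of the 13 were higher and 1 was lower, against 20.9% of all tested probes in either direction, 10.1% higher and 10.9% lower. The 3 hSRY-ON arrays lay wholly above the hSRY-OFF arrays for 5 of the 13 probes and wholly below for 1, against 27.7% of all in either direction, 13.5% above and 14.2% below. The genes with a higher probe at the unadjusted level were 4 (Aqp1, Ttr, Clic6 and Kl), the gene with a lower one was Kcne2, and the other 5 genes had none. These counts include the Kl probe, which was detected on 0 hSRY-OFF and 3 hSRY-ON arrays and so passed the filter only through the group where it was brighter. Over the 12 probes detected on all 6 arrays, a restriction chosen after seeing the data, 10 changes were positive and 2 negative with a median of 0.22, 5 probes were higher and 1 lower at the unadjusted level, and 4 lay wholly above and 1 wholly below.

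**Figure D1:**
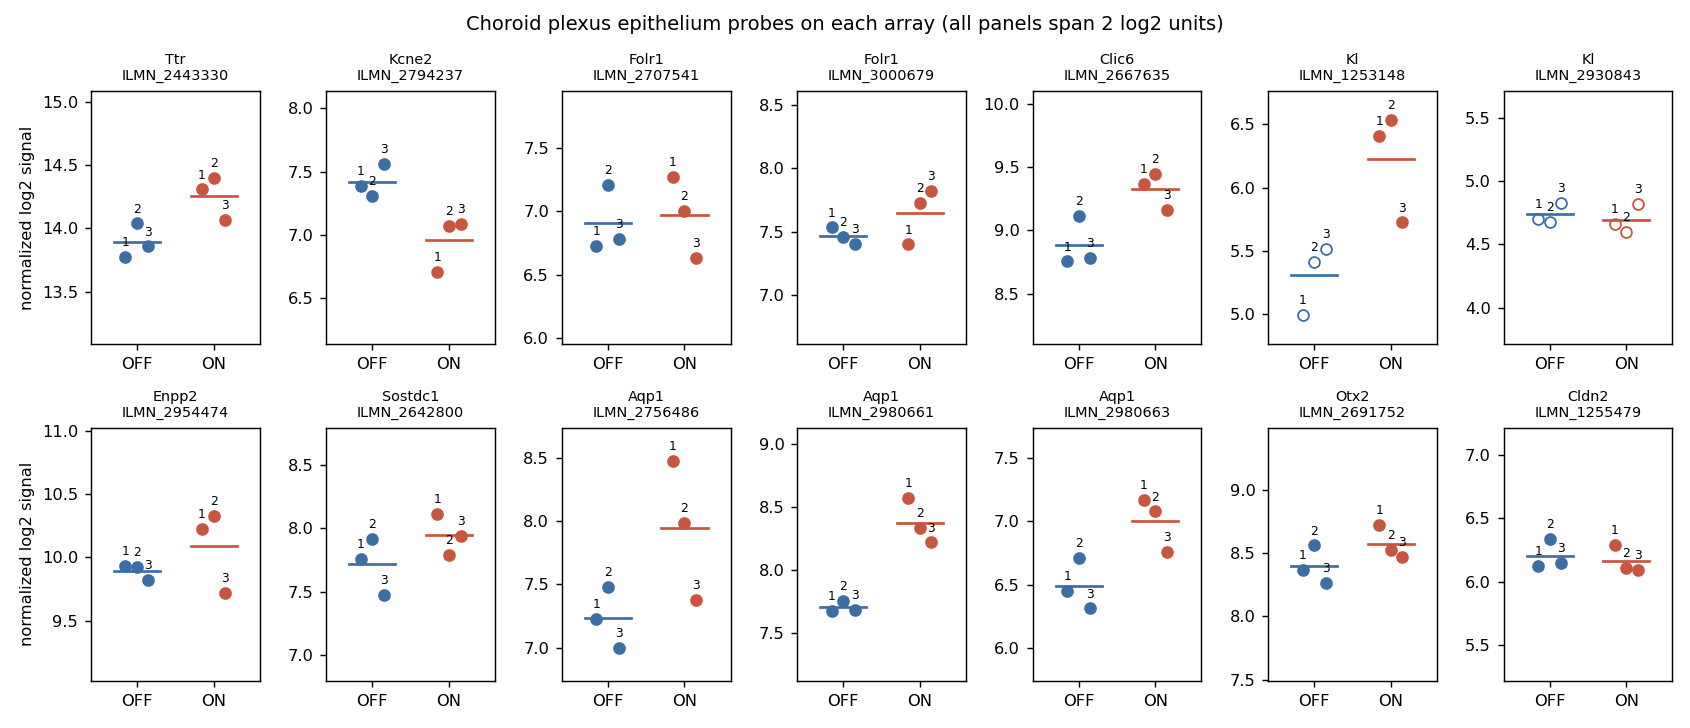
Normalized log2 signal of each of the 14 probes (1 panel per probe, all panels spanning the same range of log2 signal) on the 3 hSRY-OFF arrays (blue) and the 3 hSRY-ON arrays (red), with the group mean as a bar and the array number above each point. Open points were not above background; the groups do not overlap for Ttr, Kcne2, Clic6, Kl ILMN_1253148, Aqp1 ILMN_2980661 and Aqp1 ILMN_2980663.

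**Figure D2:**
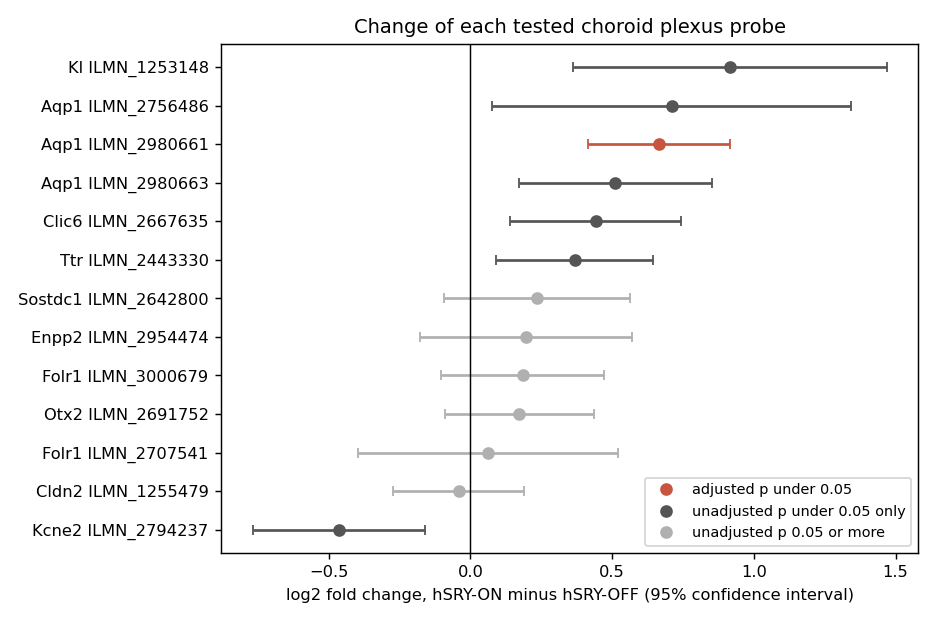
Log2 fold change (hSRY-ON minus hSRY-OFF) of the 13 tested probes with its 95% confidence interval, ordered by size. The red probe, Aqp1 ILMN_2980661 at 0.67, is the one that passed the adjusted threshold; dark grey probes passed it only without adjustment.

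Aqp1, Clic6 and Kcne2 belong to the transport of water and ions. Aqp1 encodes aquaporin-1, the water channel of the ventricular face of the choroid plexus epithelium. Its probe ILMN_2980661 had a normalized log2 signal of 7.68, 7.76 and 7.69 on hSRY-OFF arrays 1 to 3 and of 8.57, 8.33 and 8.22 on hSRY-ON arrays 1 to 3. The hSRY-OFF arrays were nearly equal and each hSRY-ON array stood above them, with a gap of 0.46 between the closest pair. The mean went from 7.71 ± 0.04 to 8.37 ± 0.18 (SD, n = 3), a log2 fold change of 0.67 (SE 0.11, limma adjusted p = 0.0348), which is 58.7% higher. This size depends on the background correction. The change was 0.43 without it and 0.54 with normexp on the signals and an offset of 50, both past the threshold (limma adjusted p = 0.0023 and 0.0094). Without hSRY-ON 3 the change was 0.75 (limma adjusted p = 0.0301). Leaving out any other array ended the call, with limma adjusted p-values up to 0.113 and changes of at least 0.57. With the change itself the same, the call was also lost with no filter on dim probes (limma adjusted p = 0.0548) and with the replicate number as a block (limma adjusted p = 0.105).

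The other 2 Aqp1 probes had positive changes that did not pass the threshold. ILMN_2980663 read 6.45, 6.71 and 6.31 in log2 signal in hSRY-OFF and 7.17, 7.08 and 6.76 in hSRY-ON. Its groups did not overlap after normalization, although the deposited intensities did, with 254.1 on hSRY-ON 3 and 254.6 on hSRY-OFF 1. The change was 0.51 (SE 0.14, limma adjusted p = 0.112), and 0.63 without hSRY-ON 3 (limma adjusted p = 0.0651). ILMN_2756486 read 7.23, 7.48 and 7.00 in log2 signal in hSRY-OFF and 8.48, 7.98 and 7.38 in hSRY-ON. Here hSRY-ON 3 fell inside the range of hSRY-OFF while the other hSRY-ON arrays lay above it. The change was 0.71 with a wide error (SE 0.27, limma adjusted p = 0.195). It was 0.44 without hSRY-ON 1 and 0.997 without hSRY-ON 3 (limma adjusted p = 0.370 and 0.0583). In all 3 probes hSRY-ON 1 was the highest array and hSRY-ON 3 the lowest of its group.

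Aqp1 is also made by red blood cells and by some endothelia outside the brain. The erythroid list had 6 tested probes, of which 3 had positive and 3 negative changes and 0 were called. Its summed linear signal was 33013 to 37668 in hSRY-OFF and 29875 to 36971 in hSRY-ON. The lowest unadjusted p-values of that list were those of Alas2, the first enzyme of haem synthesis in red cells, at -0.27 (limma adjusted p = 0.516), and Eraf, the haemoglobin-stabilizing protein now named Ahsp, at 0.32 (limma adjusted p = 0.557). The endothelial list had 11 tested probes, of which 5 had positive and 6 negative changes, with a summed signal of 9449 to 9941 in hSRY-OFF and 9358 to 10348 in hSRY-ON. One of them was called, against 2.17% of all tested probes: Vwf, the von Willebrand factor of endothelium and platelets, rose by 1.75 (SE 0.18, limma adjusted p = 0.0240). Without background correction 3 of the endothelial probes were called higher and 3 lower, against 574 and 743 of all 14215 tested probes. The part of these cells in the Aqp1 result was not tested.

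Clic6 encodes a chloride intracellular channel protein. Its deposited intensity was 647, 696 and 574 on the hSRY-OFF arrays and 822, 814 and 699 on the hSRY-ON arrays. After normalization the log2 signals were 8.76, 9.11 and 8.79 against 9.37, 9.45 and 9.17. Each hSRY-ON array lay above each hSRY-OFF array on both scales, although hSRY-ON 3 exceeded hSRY-OFF 2 by only 0.05 in log2 signal. The log2 fold change was 0.44 (SE 0.13, limma adjusted p = 0.117), and 0.52 without hSRY-ON 3 (limma adjusted p = 0.0909). It passed the threshold in 2 of 15 alternative analyses, without background correction (limma adjusted p = 0.0189) and with a trend and robust prior (limma adjusted p = 0.0139).

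Kcne2 encodes a small accessory subunit of potassium channels that sits with KCNQ1 in the apical membrane of the epithelium. Its deposited intensity was 346, 306 and 330 on the hSRY-OFF arrays and 259, 275 and 281 on the hSRY-ON arrays. The log2 signals were 7.39, 7.31 and 7.57 in hSRY-OFF and 6.71, 7.07 and 7.09 in hSRY-ON. All 3 hSRY-ON arrays were lower, by at least 0.22, with hSRY-ON 1 the lowest of all, whereas this array was the highest hSRY-ON array for 7 of the 13 probes. The log2 fold change was -0.46 (SE 0.13, limma adjusted p = 0.109), and -0.53 without hSRY-ON 3 (limma adjusted p = 0.0994). It stayed negative in 15 of 15 alternative analyses, between -0.23 and -0.53, and passed the threshold in 0 of them.

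Kcne2 and Clic6, whose probes differed in opposite directions, lie on the same chromosome. Clic6 (chr16:92498147-92541241, GRCm38.p6) starts 200014 bases past the last base of Kcne2. Of the genes between them, 3 had a tested probe. Smim11, a small membrane protein gene, had a log2 fold change of -0.16 (limma adjusted p = 0.350). Kcne1, a potassium channel subunit of the same family as Kcne2, had one of 0.04 on its single tested probe. Rcan1, a calcineurin regulator, had changes of -0.0011 and 0.0003 on its 2 probes. None of these 4 probes had an unadjusted p under 0.05. Fam243 was not above background on any array.

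The wider list of ion and water transporters of fluid secretion had 25 tested probes, of which 11 had positive and 14 negative changes, with a median of -0.04. None was called higher and 2 were called lower, against 0.844% and 1.32% of all tested probes. At an unadjusted p under 0.05, 1 was higher and 7 were lower, against 10.1% and 10.9%. Aqp4, the water channel of astrocyte endfeet and ependyma, fell by 0.81 on the log2 scale (SE 0.11, limma adjusted p = 0.0275), from 11.36, 11.37 and 11.15 in hSRY-OFF to 10.38, 10.66 and 10.41 in hSRY-ON. The direction of the aquaporin-4 probe was thus opposite to that of the aquaporin-1 probe on all 3 hSRY-ON arrays. A probe listed under Hsn2, which is part of the kinase gene Wnk1, fell by 0.55 (SE 0.09, limma adjusted p = 0.0348). This call passed in 3 of 14 alternative fits, with changes down to -0.16, and the other 2 tested Wnk1 probes had changes of 0.44 (limma adjusted p = 0.206) and -0.07 (limma adjusted p = 0.703), so that probes of this gene differed in sign.

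Ttr, Enpp2, Sostdc1 and Kl encode secreted or shed proteins. Ttr encodes transthyretin, the carrier of thyroid hormone and retinol-binding protein that the epithelium releases into the cerebrospinal fluid. Its deposited intensity was 15359, 16672 and 14408 on the hSRY-OFF arrays and 20848, 21638 and 17464 on the hSRY-ON arrays. In log2 signal these were 13.77, 14.04 and 13.86 against 14.31, 14.40 and 14.07. The hSRY-ON arrays were all higher, but hSRY-ON 3 exceeded hSRY-OFF 2 by only 0.03 in log2 signal. The mean went from 13.89 ± 0.14 to 14.26 ± 0.17 (SD, n = 3), a log2 fold change of 0.37 (SE 0.12, limma adjusted p = 0.144). Without hSRY-ON 3 it was 0.47 (limma adjusted p = 0.0766). It passed the threshold under the same 2 of 15 alternatives as Clic6 (limma adjusted p = 0.0192 and 0.0296).

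The liver also makes transthyretin in quantity, and a list of liver transcripts was read beside it. Of its 14 probes 4 were tested, with 3 positive and 1 negative changes, and their summed linear signal was 976 to 1110 in hSRY-OFF and 1056 to 1320 in hSRY-ON. Alb, the albumin gene and the most abundant liver transcript, was not above background on any array. Apoa1, the main protein of high-density lipoprotein, rose by 1.08 (SE 0.10, limma adjusted p = 0.0225), with 7.59, 7.29 and 7.30 in hSRY-OFF and 8.46, 8.48 and 8.47 in hSRY-ON. Apoa2, a second protein of that lipoprotein, was above background on hSRY-ON 3 alone, at a log2 signal of 7.02, and the probes of the liver secretory proteins Ahsg and Fga were likewise detected only there. On that array Ttr had its lowest hSRY-ON signal. The part of liver RNA in the Ttr result was not tested.

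Of the thyroid hormone and retinol genes, 9 probes were tested, of which 5 had positive and 4 negative changes, 0 were called and 2 were higher at an unadjusted p under 0.05, against 10.1% of all tested probes. These 2 were Dio3, the deiodinase that inactivates thyroid hormone, at 0.44 (SE 0.14, limma adjusted p = 0.133), and Thra, a thyroid hormone receptor, at 0.28 (SE 0.12, limma adjusted p = 0.229). For both, the 3 hSRY-ON arrays lay above the hSRY-OFF arrays.

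Kl encodes klotho, a co-receptor of FGF23 that is shed into the cerebrospinal fluid. Its probe ILMN_1253148 was above background on 0 of the 3 hSRY-OFF arrays and on all 3 hSRY-ON arrays, with intensities of 186, 191 and 193 against 238, 234 and 201. The detection p-values were 0.177, 0.0501 and 0.0514 on the hSRY-OFF arrays, so that hSRY-OFF 2 and 3 only just missed the cut. On hSRY-ON 3 the detection p-value was 0.0263. In log2 signal these were 4.99, 5.41 and 5.52 against 6.41, 6.54 and 5.73. All hSRY-ON arrays were higher, and hSRY-ON 3 was far closer to hSRY-OFF than the other two. The fitted change was 0.92 (SE 0.23, limma adjusted p = 0.0910). Because the hSRY-OFF arrays give only an upper bound, the signal was at least 1.70-fold higher in hSRY-ON, comparing the hSRY-ON mean with the lowest signal that counted as detected on each hSRY-OFF array. The size of the difference also depends on the background correction. The fitted change was 0.27 without background correction and 0.48 with normexp on the signals, both smaller than 0.92 and both past the threshold (limma adjusted p = 0.0416 and 0.0446). This probe entered the test only through the hSRY-ON arrays, so its p-values are not support for a rise. The second probe, ILMN_2930843, was not above background on any array, with 4.68 to 4.83 in hSRY-OFF and 4.60 to 4.82 in hSRY-ON, and was not tested.

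Of the genes that work with klotho or carry folate, 6 probes were tested, of which 2 had positive and 4 negative changes, with 0 called. The lowest p-values were those of Folr2, a folate receptor of macrophages, which was above background on only 3 of the 6 arrays (fitted change not past the threshold, limma adjusted p = 0.204), and of Fgfr1, a receptor that pairs with klotho, at 0.44 (SE 0.19, limma adjusted p = 0.241). For both the groups overlapped.

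Enpp2 encodes autotaxin, the secreted enzyme that makes lysophosphatidic acid. Its log2 signals were 9.93, 9.92 and 9.82 in hSRY-OFF and 10.22, 10.33 and 9.72 in hSRY-ON. Both hSRY-ON 1 and 2 lay above the hSRY-OFF arrays while hSRY-ON 3 lay below all of them. The change was 0.20 with a 95% confidence interval from -0.18 to 0.57 (limma adjusted p = 0.522), 0.38 without hSRY-ON 3 (limma adjusted p = 0.0759) and 0.079 without hSRY-ON 2 (limma adjusted p = 0.827). Of 16 tested probes for receptors and other enzymes of lysophosphatidate signalling, 9 had positive and 7 negative changes, and 1 was called, against 2.17% of all tested probes: P2ry5, now named Lpar6, a receptor for this lipid, fell by 0.46 on the log2 scale (SE 0.08, limma adjusted p = 0.0428).

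Oligodendrocytes also express Enpp2, and in the myelin list 1 of 15 tested probes had a positive and 14 a negative change, with a median of -0.47. Called were 2 of the 3 tested Mobp probes, for a myelin protein, at -1.36 and -1.05, and Ugt8a, an enzyme of myelin lipid synthesis, at -0.78 (limma adjusted p = 0.0348, 0.0225 and 0.0396). Of all tested probes 1.32% were called lower. Without background correction, and with normexp on the signals, 9 of the 15 were called lower, against 743 and 500 of all 14215 tested probes. The summed signal of the list was 35851 to 46373 in hSRY-OFF and 27890 to 28586 in hSRY-ON and did not overlap. The part of these cells in the Enpp2 value was not tested.

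Sostdc1 encodes a secreted antagonist of BMP and Wnt signals. Its log2 signals were 7.76, 7.91 and 7.47 in hSRY-OFF and 8.12, 7.79 and 7.94 in hSRY-ON, and the groups overlapped. The change was 0.23 with a 95% confidence interval from -0.09 to 0.56 (limma adjusted p = 0.380). It was 0.11 without hSRY-OFF 3, 0.15 without hSRY-ON 1 and 0.24 without hSRY-ON 3. Among 14 tested probes of BMP, Wnt and roof plate factors, 7 had positive and 7 negative changes and 0 were called. The lowest p-value was that of Lrp4, a receptor that binds Sostdc1, at 0.32 (SE 0.10, limma adjusted p = 0.139).

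The folate receptor Folr1, the tight junction protein Cldn2 and the transcription factor Otx2 remained. Folr1 encodes folate receptor alpha, which carries folate across the epithelium into the cerebrospinal fluid. Its probe ILMN_2707541 read 6.72, 7.21 and 6.78 in log2 signal in hSRY-OFF and 7.27, 7.00 and 6.63 in hSRY-ON, with a change of 0.06 and a 95% confidence interval from -0.40 to 0.52 (limma adjusted p = 0.889). Its probe ILMN_3000679 read 7.53, 7.46 and 7.40 against 7.40, 7.73 and 7.82, with a change of 0.18 and an interval from -0.10 to 0.47 (limma adjusted p = 0.434). The groups overlapped for both. Without hSRY-ON 3 the change of the first was 0.23 (limma adjusted p = 0.480). With an array left out, the change of the second ranged from 0.098 without hSRY-ON 3 to 0.31 without hSRY-ON 1. The 2 probes ordered the hSRY-ON arrays in opposite ways, hSRY-ON 1 being the highest in the first and the lowest in the second.

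Cldn2 encodes claudin-2, the pore-forming claudin of this leaky epithelium. Its log2 signals were 6.13, 6.34 and 6.15 in hSRY-OFF and 6.29, 6.11 and 6.09 in hSRY-ON. The groups overlapped, and the change of -0.04 had a 95% confidence interval from -0.27 to 0.19 (limma adjusted p = 0.853), so that a change as large as that of Aqp1 ILMN_2980661 lay outside it. The Cldn2 probe was dim, with deposited intensities from 212.1 to 234.5 and detection p-values up to 0.0063, which limits this comparison. Without hSRY-ON 3 the change was -0.0060.

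Otx2 encodes a homeodomain factor that the epithelium needs to form and to persist. Its log2 signals were 8.37, 8.56 and 8.26 in hSRY-OFF and 8.72, 8.52 and 8.47 in hSRY-ON. The groups overlapped through hSRY-OFF 2, and the change of 0.17 had a 95% confidence interval from -0.09 to 0.44 (limma adjusted p = 0.421). It was 0.098 without hSRY-ON 1, 0.10 without hSRY-OFF 3 and 0.23 without hSRY-ON 3. Otx2 is also expressed in retina and pineal gland, where the transcripts Crx, Aanat and Tph1, which mark these tissues, were not above background on any array. In that list and its neighbours of the midbrain and hindbrain 3 probes were tested and 0 called, with Gbx2, a hindbrain factor that opposes Otx2 in the embryo, at 0.53 (SE 0.14, limma adjusted p = 0.0950) and En2, a factor of the same region, at -0.42 (SE 0.22, limma adjusted p = 0.324). The part of other brain cells in the Otx2 value was not tested.

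**Figure D3:**
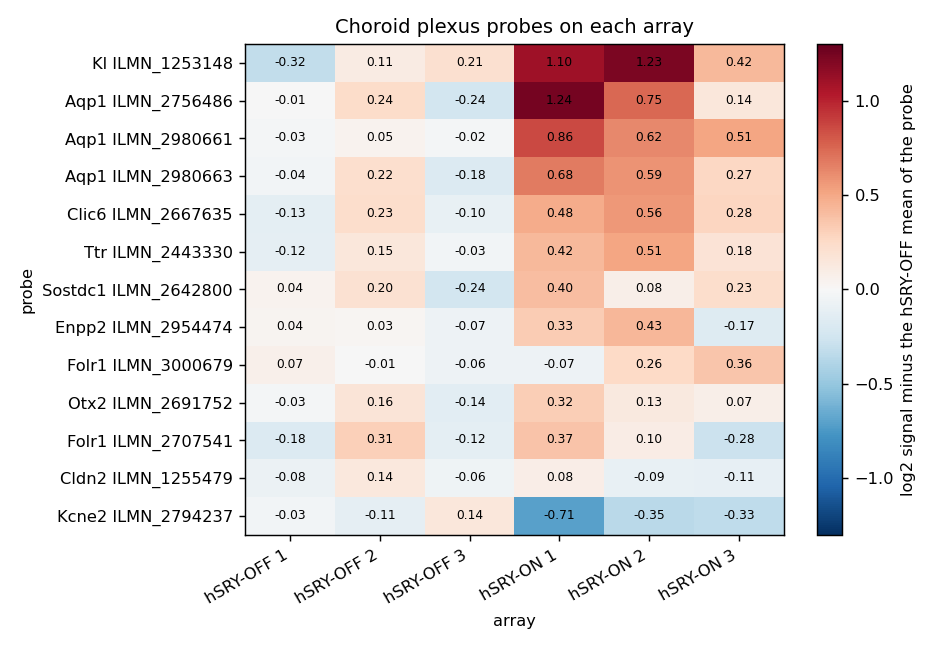
Log2 signal of the 13 tested probes on each of the 6 arrays minus the probe's hSRY-OFF mean, with probes ordered by their log2 fold change (red above, blue below that mean). The hSRY-ON 1 and 2 columns are redder than hSRY-ON 3 from Kl down to Ttr, and Kcne2 is the only row blue on all 3 hSRY-ON arrays with no overlap.

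The array profile of Ttr was compared with those of the other genes as a description over 6 arrays, which share the same libraries. Pearson's r with Ttr was 0.98 for Clic6, 0.96 for Kl, 0.88 for Aqp1, 0.77 for Enpp2, 0.76 for Otx2, 0.56 for Sostdc1, 0.28 for Folr1, 0.16 for Cldn2 and -0.81 for Kcne2, taking the brightest probe of each gene. These values run over both groups, so that they carry the difference between the groups, and the Kl probe was not above background on any hSRY-OFF array. Ttr, Clic6, Kl and Enpp2 shared the order of the hSRY-ON arrays, hSRY-ON 2 being the highest and hSRY-ON 3 the lowest. Among 877 probes that ranged over at least 1 log2 unit, those most like Ttr included LOC670044 (r = 0.97), Ap1g2 (0.96), Kl (0.96) and Ly6a (0.95). Ly6a, a surface antigen of endothelium and blood stem cells, had a log2 signal of 8.62, 8.70 and 8.55 in hSRY-OFF against 9.84, 10.08 and 9.05 in hSRY-ON and did not pass the threshold (limma adjusted p = 0.0807).

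Further genes known from choroid plexus epithelium were on the arrays with 56 probes, of which 32 were tested, and 19 of these had positive and 13 negative changes, with a median of 0.27. The median was 0.096 without background correction and 0.17 with normexp on the signals and an offset of 50. The summed linear signal of the list did not show this direction, with 13907 to 14270 in hSRY-OFF and 13347 to 14084 in hSRY-ON. One was called higher and 1 lower, against 0.844% and 1.32% of all tested probes. Trpm3, a cation channel of the epithelium, rose on 1 of its 4 tested probes, from 6.76, 7.12 and 7.00 to 7.51, 7.98 and 7.81 (change 0.81, SE 0.15, limma adjusted p = 0.0479), and the other tested probes had changes of 0.64, 0.32 and 0.03. The Trpm3 call passed in 7 of 15 alternative fits and was lost without hSRY-ON 3, without any other single array, with no filter on dim probes and with the replicate block. Dab2, an endocytic adaptor, fell by 0.80 on the log2 scale on 1 of its 2 tested probes, from 10.22, 10.04 and 10.19 to 9.23, 9.39 and 9.44 (SE 0.10, limma adjusted p = 0.0263), and its other tested probe had a change of -0.54 (limma adjusted p = 0.0861). The Dab2 call passed in 9 of 15 fits, among them those without hSRY-ON 3 and with no filter, and was lost when any other array was left out or with the replicate block. Dab2 is also expressed by macrophages and meningeal cells. At an unadjusted p under 0.05, 12 of the 32 were higher and 5 lower, against 10.1% and 10.9% of all tested probes, and the same numbers lay wholly above or below, against 13.5% and 14.2%. Over the 24 of these probes detected on all 6 arrays, 11 were higher and 5 lower at the unadjusted level. As among the 10 genes, no positive change reached 1 log2 unit.

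Of 2 tissues that border the plexus, neither had a positive median. The ependymal and motile cilia list had 19 tested probes with 6 positive and 13 negative changes and a median of -0.10. Its single called probe, against 1.32% of all tested probes called lower, was Pltp, a phospholipid transfer protein, which fell by 0.56 on the log2 scale (SE 0.11, limma adjusted p = 0.0479). Its summed signal was 7681 to 8270 in hSRY-OFF and 6743 to 7666 in hSRY-ON. The meninges and stroma list had 16 tested probes with 6 positive and 10 negative changes, 0 called and a median of -0.21, with Fmod, a collagen-binding proteoglycan, at -0.50 (SE 0.11, limma adjusted p = 0.0604) and Lum, a proteoglycan of the same family, at -1.09 (SE 0.24, limma adjusted p = 0.0682). Its median was -0.11 without hSRY-ON 1. Without background correction the medians were -0.06 for the ependymal and -0.10 for the meningeal list. Called there were 0 higher and 3 lower in the first, and 1 higher and 6 lower in the second. Over all 14215 tested probes, 574 were then called higher and 743 lower. The part of these tissues in the results for the 10 genes was not tested. Of the probes called in the lists beside the choroid plexus genes, those of Aqp4, Vwf, Apoa1 and Mobp ILMN_3024681 passed in 9 of 15 alternative fits, those of Mobp ILMN_1223628 and Pltp in 8, and those of Ugt8a and P2ry5 in 7.

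**Figure D4:**
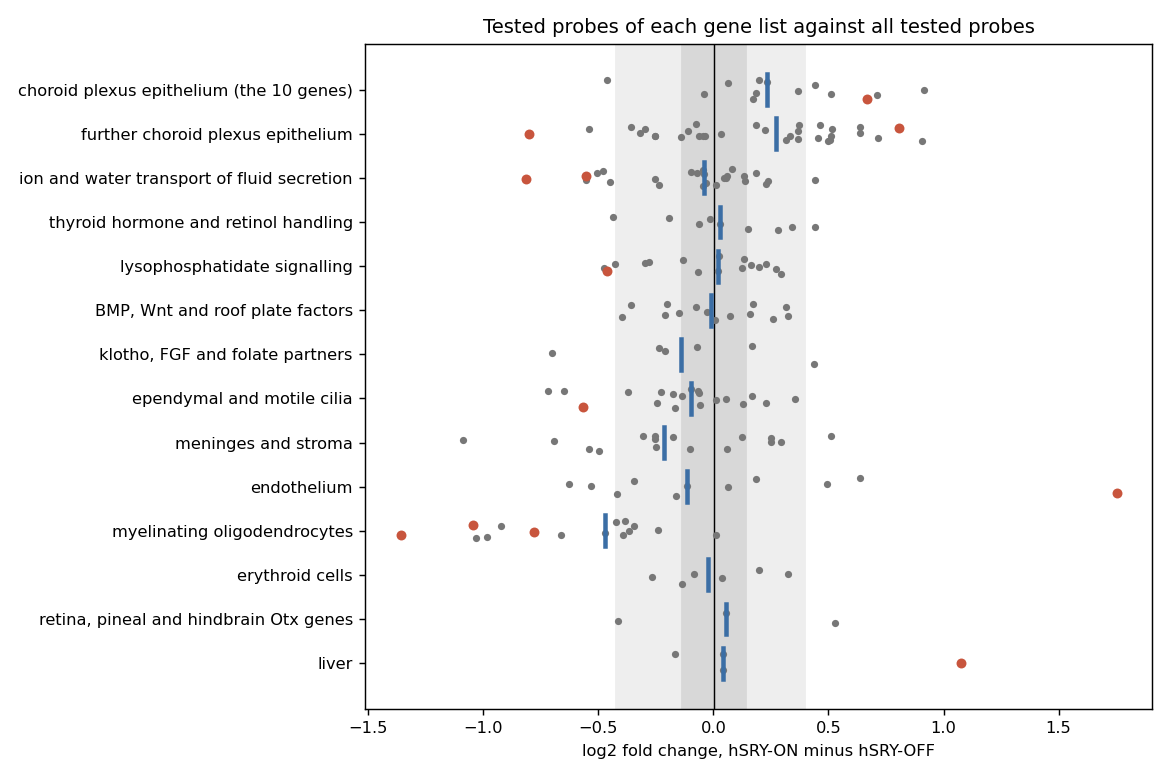
Log2 fold change (hSRY-ON minus hSRY-OFF) of every tested probe of each gene list (grey points, red where called at an adjusted p under 0.05), with the list's median as a blue bar. Shading spans the 25th to 75th and the 5th to 95th percentile of all tested probes; the 10 genes and the further choroid plexus genes have medians of 0.23 and 0.27, and the myelin list -0.47.

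**Figure D5:**
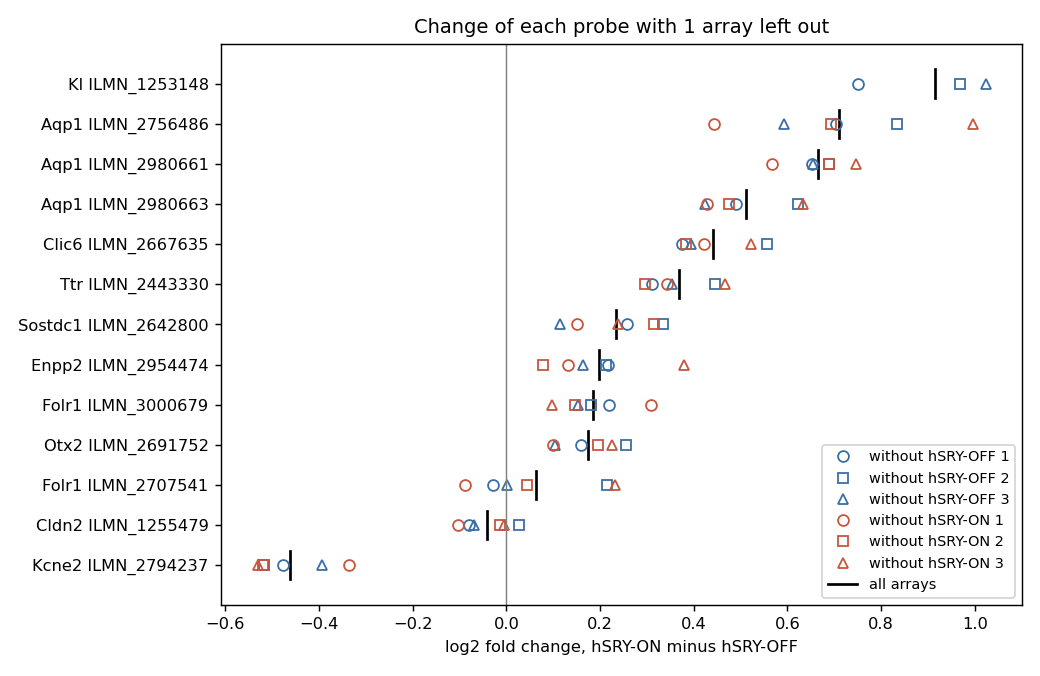
Log2 fold change (hSRY-ON minus hSRY-OFF) of each tested probe when 1 array was left out (open symbols) and with all arrays (black bars). Only Folr1 ILMN_2707541 and Cldn2 crossed 0, and Kl could be fitted only without an hSRY-OFF array because its detection rested on the 3 hSRY-ON arrays.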

How the data were processed

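Total RNA of brain from 6 male mice was measured on Illumina MouseRef-8 bead arrays. The authors deposited, for each probe and array, a mean bead intensity on a linear scale and a detection p-value. No normalization was visible in the deposited intensities, the steps of the p-values corresponded to 798 negative controls, and bead counts were not used here. The submitters' processing notes name limma, and the study's methods name TCC without settings, which was not used. Samples were grouped by the genotype in their titles, and the labels do not name the animals, so p-values measure the spread between these samples. The number of arrays, 3 per group, limits the precision.

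In R 4.3.3 with limma 3.58.1, intensities were corrected by normexp with an offset of 16, with background inferred from the detection p-values, which widens the spread of dim probes, then quantile normalized and put on the log2 scale. A probe was tested if its detection p-value was below 0.05 on 3 or more arrays (lmFit and eBayes, two-sided, group as the only term) with Benjamini-Hochberg adjustment over all tested probes and a call under 0.05. Probes of 1 gene were kept apart, and levels were compared between probes only to pick the brightest probe of a gene. Summed list signals add the linear normalized signals of a list's tested probes. Older symbols were matched through the annotation of GRCm38.p6, where 14307 of 18138 listed symbols were current and 2927 were unique synonyms.

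The 10 genes and all lists were chosen with earlier results of these data known. Genes were named by rule: all probes of the 10 genes, every called probe of another list or, with none called, the 2 lowest p-values, the genes between Kcne2 and Clic6, and the 5 probes most like Ttr. A few results under this rule are not reported here. Alternatives covered background correction, normalization, filters, priors, weights, a replicate block, 1 probe per symbol, thresholds and leaving out each array. The fit was tested on simulated data. Plots were made in Python 3.11.15 (matplotlib 3.10.9).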

Additional observations from a re-analysis of the deposited data

How the results depend on the processing

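Among the 13 tested probes of the 10 genes, 1 was called. With median scaling, cyclic loess, detection on all arrays at a p under 0.01, array quality weights or 1 probe per symbol it was again 1. It was 5 without background correction, 2 with normexp on the signals and an offset of 50, 4 with a trend and robust prior, 0 with no filter on dim probes, 2 at an adjusted p under 0.10 and 0 under 0.01, and 0 to 1 with an array left out (1 only without hSRY-ON 3). The counts of 5, 4 and 2 include the Kl probe, which passed the filter only through the hSRY-ON arrays. For the further choroid plexus probes, with 2 called, the counts were 12, 12, 12, 1, 13 and 0 under those 6 settings, 2 with median scaling, 4 with cyclic loess, 11 with detection on all arrays, 8 with weights, 6 with 1 probe per symbol, and 0 to 5 with an array left out. Over all tested probes 308 were called, and 1317 without background correction, 860 with normexp on the signals, 1447 with the trend and robust prior, 123 with no filter, and 0 to 417 with an array left out. There were 332 with median scaling, 338 with cyclic loess, 480 with weights, 999 at an adjusted p under 0.10 and 1 under 0.01. Detection on all arrays gave 705 of 11619 tested probes, and 1 probe per symbol gave 371 of 10437. The cause of these shifts was not tested.

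With an array left out, the change of Folr1 ILMN_2707541 ranged from -0.089 to 0.23 and was negative without hSRY-OFF 1 (-0.028) or hSRY-ON 1, and that of Cldn2 ranged from -0.10 to 0.027 and was positive only without hSRY-OFF 2. Neither passed the threshold. Every other tested probe of the 10 genes kept its sign under every alternative that could be fitted. The dim Kl probe was not tested with detection on all arrays or with any hSRY-ON array left out. Its change was 0.27 without background correction and 0.48 with normexp on the signals. It was past the threshold in both, but it entered the test only through the hSRY-ON arrays.

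With the replicate number as a block, 0 probes of the 10 genes, 0 of the further choroid plexus probes and 0 of all probes passed the threshold, and 2906 of all had an unadjusted p under 0.05. Same-numbered arrays correlated at only 0.04, 0.03 and 0.03 in their deviations from the group means, each the highest for its number, which is a hint from the data, and the labels do not tie the numbers to a litter or day. Bead intensities near background limit Kl, whose hSRY-OFF signals were bounds, and the dim Cldn2 probe.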
